A study of Mus musculus with 11 samples.

Results

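Small RNA was compared between Trim71-/- and Trim71fl/fl mouse embryonic stem (mES) cells of clone 1, which gave 6 of the 11 libraries of the study. These are all libraries whose labels name clone 1, namely 1 Trim71-/- and 1 Trim71fl/fl library on each of days 1, 5 and 6, and all 592 miRNAs of the deposited table were kept. The remaining 5 libraries belong to clone E3. Their 2 same-day pairs were used to ask whether the clones differed and to compare same-day sums, and 1 library without a partner was left out of the tests. The labels give both groups as male C57BL/6 embryonic stem cells grown with FCS and LIF and sorted magnetically for SSEA-1, a surface antigen of undifferentiated mES cells. Both derive from cells with floxed Trim71 alleles and, per the methods of the study, a Cre recombinase that 4-hydroxytamoxifen (4-OHT) activates from the Rosa26 locus. The cells labelled Trim-/-, here Trim71-/-, were exposed to 500 nM 4-OHT for 2 days per the labels and grown for at least 7 days more, whereas the methods name a lower concentration of 4-OHT and a shorter culture after it, and DMSO for Trim71fl/fl cells. The comparison asks which miRNAs differ once Trim71, an RNA-binding protein of stem cells, is deleted. Effects of 4-OHT or of active Cre cannot be told apart from those of the deletion in this design. Clone 1 is a single clone. The labels do not say what a day counts or whether each day was a separate deletion, so that the p-values measure the spread between these samples, which may be technical. Trim71 mRNA is not among the 592 miRNAs, and the deletion was not checked here.

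A miRNA is cut from a hairpin in a longer transcript, which can leave a mature strand from its 5′ arm, its 3′ arm or both, and it represses mRNAs that pair with its seed, bases 2 to 8 of the mature strand. The miR-290 to miR-295 cluster is the main miRNA group of mES cells, and its members with the seed AAGUGCU promote the cell cycle and the undifferentiated state. The let-7 family marks differentiated cells, represses Trim71 itself and is held down in mES cells by Lin28. The imprinted Dlk1-Dio3 region of chromosome 12 carries a large miRNA group in the maternally expressed RNAs Rian and Mirg and opposite the paternally expressed gene Rtl1, and the maternal RNAs are known to be silent in some mouse pluripotent lines.

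The mature strands on which the results below turn are shown 5′ to 3′ with the seed in capitals, as matched by name to RefSeq on GRCm38.p6, in which 463 of the 592 miRNAs had an entry. The first 4 are Dlk1-Dio3 miRNAs that fell in the Trim71-/- cells of clone 1, and no seed is shared among them.
miR-136-5p: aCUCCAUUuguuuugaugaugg
miR-410-3p: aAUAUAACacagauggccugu
miR-154-3p: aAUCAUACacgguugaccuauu
miR-434-3p: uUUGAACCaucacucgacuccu
The next 5 share the seed AGCAGCA and come from different hairpins, all below their Trim71fl/fl level on average.
miR-16-5p: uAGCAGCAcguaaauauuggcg
miR-15a-5p: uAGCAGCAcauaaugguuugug
miR-15b-5p: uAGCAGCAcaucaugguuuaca
miR-195a-5p: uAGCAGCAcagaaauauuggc
miR-322-5p: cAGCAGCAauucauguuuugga
The opposite arm of the miR-195a hairpin, with another seed, moved the other way.
miR-195a-3p: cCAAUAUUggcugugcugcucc
Of the let-7 family, let-7e-5p rose and let-7a-5p did not pass the test, although both carry the seed GAGGUAG.
let-7e-5p: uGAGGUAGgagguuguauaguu
let-7a-5p: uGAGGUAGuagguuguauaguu
The strands of miR-291a-3p and miR-294-3p stand for the stem cell seed AAGUGCU, and miR-106b-5p for the related seed AAAGUGC of the miR-17 clusters.
miR-291a-3p: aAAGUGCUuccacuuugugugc
miR-294-3p: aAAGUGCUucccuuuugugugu
miR-106b-5p: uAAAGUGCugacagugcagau

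Each deposited value is a read count that the authors normalized with DESeq2 and corrected for batch, and values under 1 were set to 1, called the floor here. How many reads stand behind a library is not known from the table. In 591 of 592 miRNAs the Trim71-/- and Trim71fl/fl values of a day summed to the same total in all same-day pairs without a floored value, within 0.1%. A high value in 1 library is therefore a low value in its partner by construction, each pair holds 1 measured difference, and the level about which the pair spreads is shared by all days and both clones. For the same reason the SDs of both groups were equal apart from values at the floor, and the 3 values of each group kept apart whenever all 3 days had the same sign. Of the clone 1 values, 99 in 88 miRNAs were at the floor. These values were spread unevenly, with 28, 7 and 19 in the Trim71-/- libraries of days 1, 5 and 6 and 0, 21 and 24 in their Trim71fl/fl partners. The sum of all values in the Trim71-/- library was 1.15, 2.02 and 1.16 times that of its partner on days 1, 5 and 6, although the median log2 difference of these pairs was -0.014, -0.0056 and 0.022. The pair of day 5 stood apart by this measure, and that of day 6 by its let-7 values, and which library of a pair gave rise to this cannot be told apart. The log2 fold change also depends on the shared level, while the difference within a pair does not. Differences are given on log2(value + 1), as Trim71-/- minus Trim71fl/fl, which understates the change of low values above the floor. All 99 floored values, recovered as the constant sum minus the partner, were below 1 before the floor. Where the partner alone exceeded that sum, as for miR-136-5p, let-7a-5p and miR-21a-5p, the recovered value was negative. No read count can be negative, so a value of 1 is not a measured level. The size of a fold change that rests on it depends on the floor.

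With limma on the 3 pairs and the day as a block, 14 miRNAs (2.36%) rose and 45 (7.60%) fell by the criteria of the study (over 1.5-fold and an unadjusted p under 0.05). After adjustment over the 592 miRNAs, 1 miRNA (0.169%), miR-136-5p, remained lower at an adjusted p of 0.0454 and 0 were higher, against 14 without adjustment, and the next smallest adjusted p was 0.441. "Rose" and "fell" below refer to the thresholds without adjustment. Each of these 59 miRNAs (9.97%) moved the same way on all 3 days, a pattern that 138 miRNAs (23.3%) showed upward and 143 (24.2%) downward. The fold change was above 0 in 300 miRNAs (50.7%) and below 0 in 292 (49.3%), with a median of 0.01. The excess of falls over rises was thus among the miRNAs past the thresholds and not in the table as a whole. Its size depended on the scale of the libraries, since 3 miRNAs rose and 76 fell when each library was divided by its total, which moved the median of all miRNAs to -0.45. Leaving out the pair of day 1 gave 12 rises and 16 falls, leaving out day 5 gave 6 and 28, and leaving out day 6 gave 7 and 31. No adjusted p stayed under 0.05 with 2 pairs, and 6, 4 and 1 of the 14 rises and 12, 23 and 23 of the 45 falls were called again without days 1, 5 and 6. Of the called miRNAs named by rule, miR-136-5p, miR-136-3p, miR-154-3p, miR-410-3p, miR-377-3p and miR-3077-3p kept the call without each pair in turn, and miR-106b-5p, miR-423-5p, miR-195a-3p, miR-132-5p, miR-1198-5p and miR-3470b lost it each time. A permutation of the genotypes within days has 8 sign patterns here and cannot give an exact two-sided p below 0.25, so none is quoted.

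**Figure D1:**
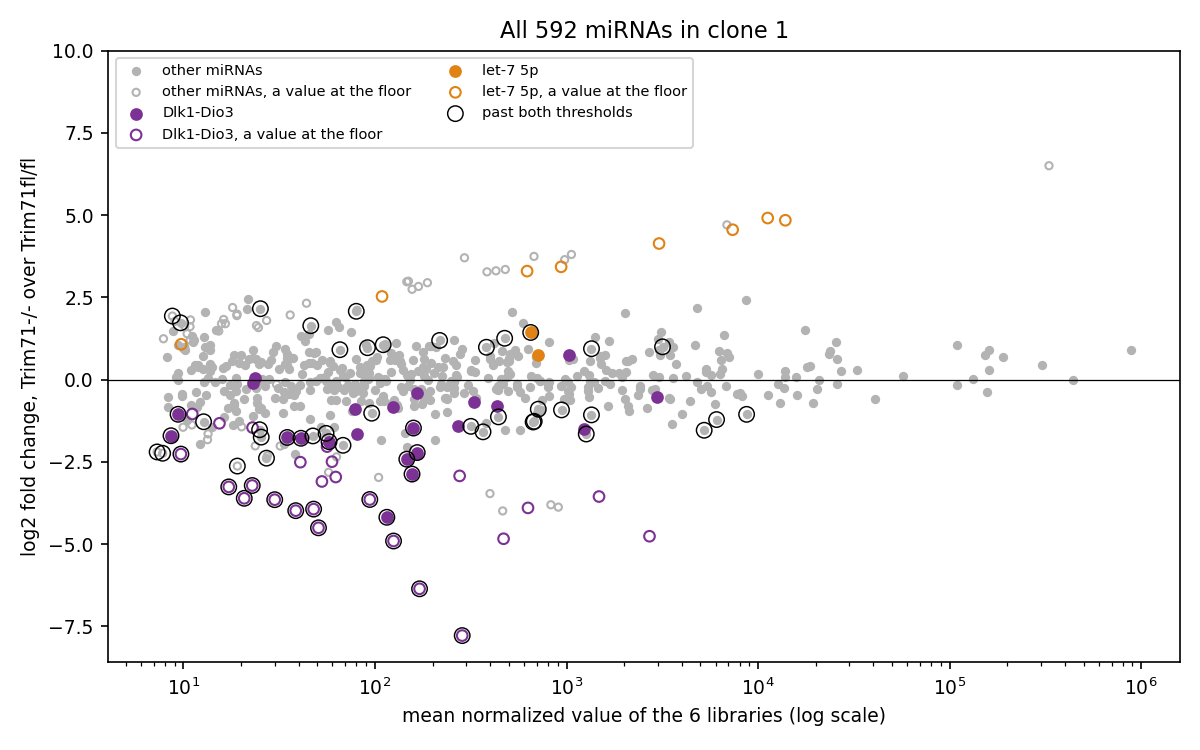
Log2 fold change of Trim71-/- over Trim71fl/fl against the mean normalized value of the 6 libraries (log scale) for all 592 miRNAs of clone 1. Open symbols have at least 1 value at the floor, and black rings mark the 14 rises and 45 falls, of which 22 are Dlk1-Dio3 miRNAs (purple).

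The Dlk1-Dio3 miRNAs made up the largest share of the falls. Of 47 measured members from 34 hairpins, 22 fell and 0 rose, or 46.8% of the list against 7.60% of all miRNAs called lower, and 30 (63.8%) lay below their partners on all 3 days, against 24.2%. The list is 7.94% of the table and holds 48.9% of the falls, while 4.22% of the other 545 miRNAs fell. Its median log2 fold change was -2.26, against 0.01 for all miRNAs. Days 1, 5 and 6 had medians of -1.25, -0.95 and -2.91. On day 6, 47 of 47 members were lower in Trim71-/- cells, and on days 1 and 5 it was 37 and 36. The floor was involved, since 33 values of the list were at 1 in Trim71-/- libraries and 0 in Trim71fl/fl libraries, and in the 22 members without such a value the median was -1.44. Without day 6 the median of the list was -1.25. Without the pairs of days 1, 5 and 6 the number of members that fell was 14, 19 and 13. In bulk samples fewer cells that express these miRNAs and less RNA per cell cannot be told apart.

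The summed values of the list were 8904, 13958 and 3518 in the Trim71-/- libraries of days 1, 5 and 6 and 20372, 14598 and 25424 in their partners. This was 0.206%, 0.251% and 0.0809% of the library in Trim71-/- cells and 0.542%, 0.532% and 0.676% in Trim71fl/fl cells, so that the shares did not overlap. The ratio of the sums themselves was closest to 1 on day 5, at 0.956, against 0.437 and 0.138 on days 1 and 6. Members with means over 1000 differed in this. miR-381-3p, from the stretch between Rian and Mirg, was at 2997, 3440.4 and 1125 in Trim71-/- and 2947, 2503 and 4818 in Trim71fl/fl cells, lower on day 6 alone, while miR-127-3p was lower on all days. miR-541-5p of Mirg, like miR-379-5p, was lower on days 1 and 6 and higher on day 5, with 834, 1427 and 147 against 1644, 1051 and 2331. miR-370-3p, from an intron of Rian, was 1 of 2 members with a fold change above 0, at 1132, 1896 and 515 against 927, 163 and 1544, and its sign differed between days. The 3 members in Rian had a median of -0.84, and 1 of them fell (7.60% of all miRNAs). This was miR-341-5p, at a log2 fold change of -3.22 with 2 values at the floor.

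Opposite Rtl1, 8 members lie in the strand that targets this transcript by full pairing, as is known for miR-127 and miR-136, and 4 of the 8 fell (7.60% of all miRNAs) with a median of -2.73. The mature miR-136-5p (chr12:109595331-109595352, plus strand) was at 1, 1 and 3.33 in the Trim71-/- libraries of days 1, 5 and 6 and at 579.9, 580.2 and 547 in their partners. Both Trim71-/- values of days 1 and 5 were at the floor, so that these 2 pairs need not keep to the constant sum. Their partners alone exceeded that sum, so that both values were negative before the floor and the size of the fold change depends on it. Its log2 fold change was -7.78 (SE 0.41, 95% interval -8.95 to -6.61), with an adjusted p of 0.0454 by limma. It kept its unadjusted call without each pair in turn, at unadjusted p between 0.00049 and 0.0016. The adjusted p was then 0.582, 0.136 and 0.215 without days 1, 5 and 6. It also passed 0.05 with a pseudocount of 0.1 (0.0968), on untransformed values (0.0905) and on values before the floor (0.175), so that the adjusted call was lost. Its other arm, miR-136-3p, fell too, from 88.9, 78.5 and 98.3 to 4.98, 15.5 and 1. miR-434-3p (chr12:109594565-109594586) had no value at the floor and was at 56.8, 71.4 and 48.1 against 276, 261 and 284 (log2 fold change -2.22, SE 0.32, adjusted p = 0.441). For miR-127-3p, the most abundant miRNA of this strand, the values 1, 2252 and 843 and 5792, 2986 and 4394 kept apart but varied too much to pass the test (unadjusted p = 0.138).

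Between Rian and Mirg, 8 of 18 members fell (7.60% of all miRNAs), with a median of -2.65. They belong to the long array of hairpins known as the miR-379 to miR-410 cluster. miR-376a-3p (chr12:109723824-109723844) was at 1, 1 and 88.4 against 260.0, 258 and 142, so that the pair of day 6 was much closer than the others. miR-323-3p, by contrast, was at 4.76, 83.0 and 1.66 against 226, 148 and 229, with the smallest gap on day 5. miR-379-3p had no value at the floor and was at 15.4, 19.3 and 11.9 against 54.3, 50.4 and 57.8 (log2 fold change -1.76, SE 0.34). Its more abundant arm, miR-379-5p, did not keep apart, at 1168, 1699 and 1 against 1747, 1217 and 3035. Also miR-329-5p, miR-380-3p, miR-380-5p, miR-494-3p and miR-376b-3p fell, with log2 fold changes between -3.99 and -2.42.

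In Mirg, a non-coding RNA that hosts the distal miRNAs, 8 of 13 members fell (7.60% of all miRNAs) and all 13 had a fold change below 0 (49.3% of all), with a median of -2.26. The 3′ arm miR-410-3p (chr12:109743764-109743784, in an exon of Mirg) was at 1, 15.8 and 1 against 397, 292 and 318, a log2 fold change of -6.36 (SE 0.87, adjusted p = 0.441). The rarer 5′ arm of the same hairpin fell from 12.3, 13.9 and 14.7 to 4.89, 3.35 and 2.51. miR-154-3p (chr12:109738474-109738495, in an intron of Mirg) was at 6.63, 4.29 and 1 against 91.2, 93.5 and 108, or -4.51 (SE 0.56, adjusted p = 0.441). miR-377-3p and miR-369-3p fell by 3.61 and 3.65 on the log2 scale, and miR-485-3p, without a floored value, by 1.89. In Trim71-/- cells miR-369-3p was lowest on day 1 (1, 21.8 and 48.4) and miR-154-3p on day 6, so that the day of the widest gap was not the same across the region. Nearer the start of the region, miR-673-3p was low and steady at 5.65, 5.65 and 5.94 against 13.1, 13.1 and 12.8 and fell, whereas miR-770-3p of Meg3 lay below its partner on days 5 and 6 only.

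**Figure D2:**
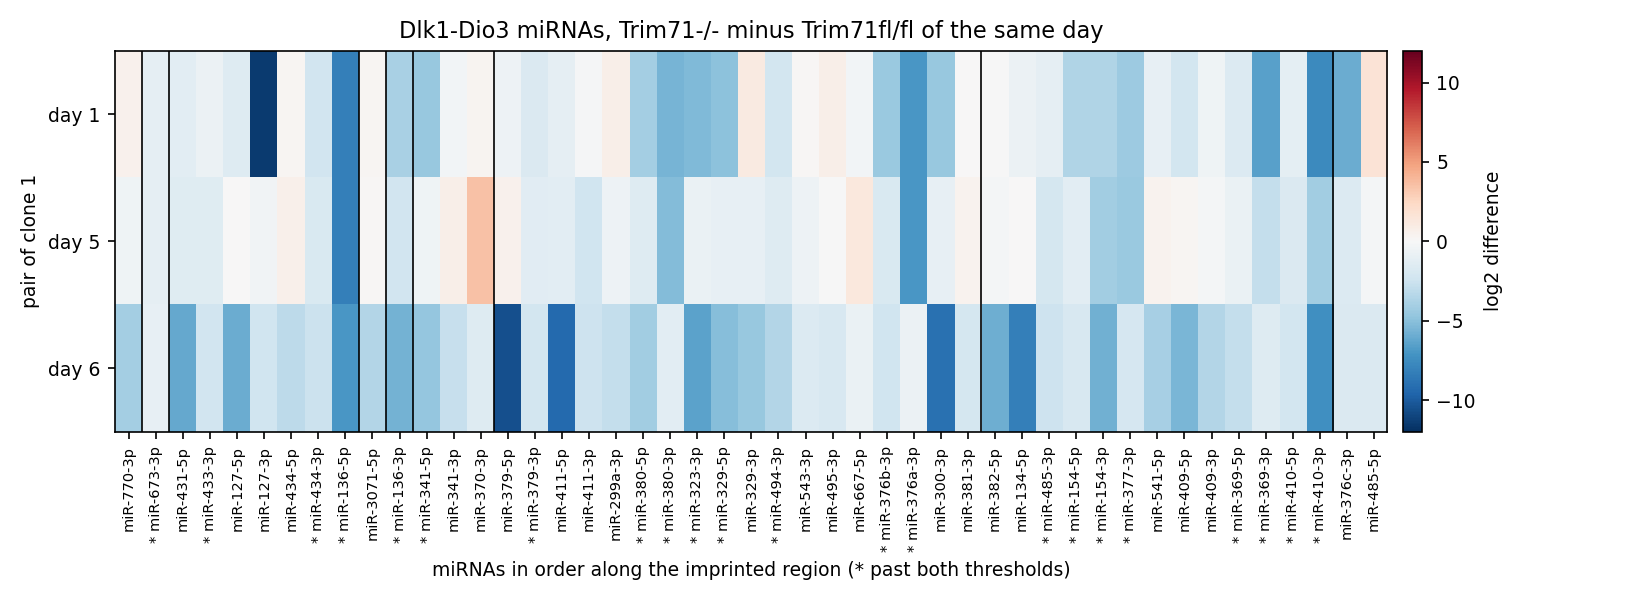
Log2 difference of each same-day pair of clone 1 (rows) for the 47 Dlk1-Dio3 miRNAs in their order along chromosome 12 (columns), blue where Trim71-/- was lower, with black lines between the host segments and the 2 members without a position at the right. The row of day 6 is blue in all 47 columns, while days 1 and 5 hold 37 and 36 lower members.

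Outside this region, 23 miRNAs fell, 12 of them in no list. Of these the family with the seed AGCAGCA was taken up after its values had been seen. This seed of miR-15 and miR-16 is known to restrain cyclins and other cell cycle genes. Of its 5 members, 3 fell, 4 lay below their partners on all 3 days, 0 rose and the median was -1.42, where 7.60% of all miRNAs fell and 24.2% lay below on all days. miR-16-5p was at 2344, 2669 and 3047 in Trim71-/- libraries (2687 ± 352, SD, n = 3) and at 8119, 7794 and 7416 in Trim71fl/fl libraries (7776 ± 352, SD, n = 3). It fell by 1.54 on the log2 scale (SE 0.31, adjusted p = 0.447; unadjusted p = 0.00878, and 0.0582 without day 1), and the pairs kept wide apart. miR-15a-5p, from an intron of Dleu2, was at 130.4, 163 and 231 against 503, 471 and 403 and fell. miR-195a-5p fell as well, from 1052, 933 and 879.7 to 305, 423 and 477. miR-15b-5p stayed below on every day, at 484, 399 and 645 against 979, 1064 and 818 (unadjusted p = 0.0699), and the values of miR-322-5p overlapped, at 156, 31.7 and 51.2 against 131, 255 and 235.

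Both arms of the miR-195a hairpin (chr11:70235062-70235082 and chr11:70235100-70235121, plus strand) were past the thresholds in opposite directions. While the 5′ arm fell, miR-195a-3p was at 589.6, 774 and 625 against 361, 177 and 326 and rose by 1.26 on the log2 scale (SE 0.43), a call that was lost without each of the 3 pairs (unadjusted p between 0.0832 and 0.138) and with libraries divided by their totals (unadjusted p = 0.142). This was the only such hairpin among the 121 with both arms in the table and a single position. The arms had the same sign in 74 of these and opposite signs in 47. Both kept apart in the same direction in 25, of which 15 were downward and 10 upward, and in opposite directions in 6. In 5 hairpins both arms fell, all 5 in Dlk1-Dio3 (miR-136, miR-154, miR-369, miR-380 and miR-410). All 12 hairpins of that region with both arms had both fold changes below 0. This recounts values of a list in which 45 of 47 members were below 0, against 49.3% of all miRNAs.

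The paralogous clusters that start with miR-17, miR-106a and miR-106b, which drive the cell cycle in stem cells and tumours, gave 5 falls and 0 rises among 28 miRNAs (17.9% of the list against 7.60% overall), and 16 lay below their partners on all 3 days, against 24.2% overall. The median was -0.58, with -0.45, -0.73 and -0.31 on days 1, 5 and 6. miR-106b-5p (chr5:138165787-138165807, minus strand, in an intron of Mcm7) was at 3184, 3776 and 4039.5 against 8960.1, 8368 and 8104, a log2 fold change of -1.21 (SE 0.30), and its call was lost without each pair in turn (unadjusted p between 0.0528 and 0.102). Its relative miR-106a-5p was the steadiest, with 5536, 5738 and 5703 against 11889, 11687 and 11722, and fell by 1.06. miR-17-3p, miR-18a-5p and miR-19b-1-5p, all from Mir17hg on chromosome 14, fell by 1.13, 1.07 and 1.75. Of the abundant members, miR-17-5p (unadjusted p = 0.0894), miR-20b-5p (unadjusted p = 0.0878) and miR-93-5p (unadjusted p = 0.216) lay below on every day without passing the test, at log2 fold changes of -0.72, -0.72 and -0.47. Others had no common direction. miR-20a-5p was at 42718, 32226 and 23671 against 38635, 49127 and 57682 with a reversed sign on day 1, and miR-92a-3p (66506, 53649 and 57879 against 48056, 60913 and 56683) was higher in Trim71-/- on days 1 and 6. Of the 6 miRNAs with the seed AAAGUGC, 2 fell and 5 lay below on every day, against 7.60% and 24.2% of all.

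Also past the thresholds were 2 of the 3 miR-29 strands (7.60% of all miRNAs fell), which repress collagens and DNA methyltransferases. miR-29a-3p fell from 914, 1079 and 832 to 425, 260.2 and 507 and miR-29c-3p from 52.4, 46.3 and 32.8 to 1.92, 8.01 and 21.6. miR-29b-3p was at 569.7, 1 and 675 against 1172, 1954 and 1067, low on day 5 through the floor. Among blood and endothelial miRNAs, miR-142-3p, which marks blood cells, was at 496, 397 and 1051 against 2039.7, 2138 and 1485 and fell by 1.65. Its call was lost without day 1 (unadjusted p = 0.151) and without day 5 (unadjusted p = 0.117). In the same list miR-155-5p, which acts in immune cells, fell from 637, 527 and 454 to 95.9, 207 and 279. The other 7 members of that list did not pass the test. miR-34a-3p, from the p53-induced miR-34a hairpin, fell by 2.63, while miR-34a-5p, the arm that acts downstream of p53, was at 1329.8, 1143 and 1133 against 1958, 2144 and 2154 (unadjusted p = 0.0604).

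**Figure D3:**
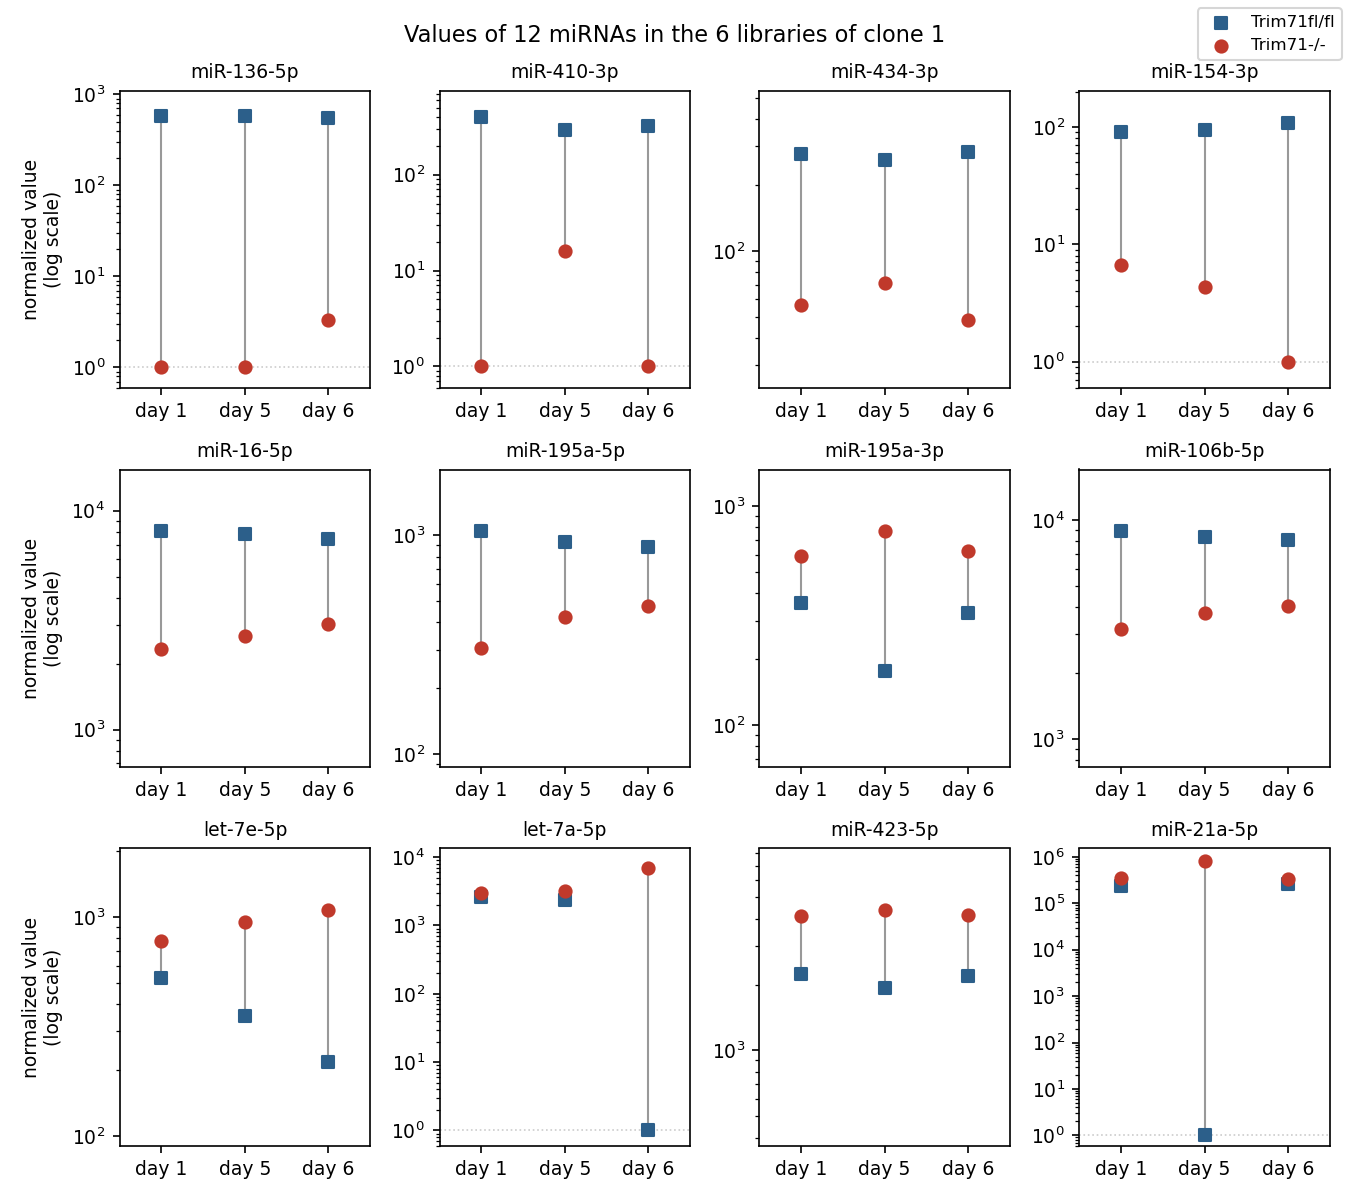
Normalized values (log scale) of 12 miRNAs in the 3 Trim71-/- (red circles) and 3 Trim71fl/fl libraries (blue squares) of clone 1, with a line joining the libraries of a day and the floor of 1 dotted. The genotypes keep apart in all 12, and the pairs of let-7a-5p on day 6 and of miR-21a-5p on day 5 are far wider than their other pairs, with the Trim71fl/fl value at the floor.

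The 14 rises, between 0.91 and 2.16 on the log2 scale, were smaller than the largest falls, and 12 of them were in no list. With libraries divided by their totals 3 of the 14 were still called. The largest was miR-3474, from an intron of Actr5, at 34.4, 46.9 and 41.1 against 16.1, 3.55 and 9.38 (log2 fold change 2.16, SE 0.57, adjusted p = 0.447). miR-1947-5p, from an intron of Lmln, was at 95.9, 139 and 142 against 63.9, 20.7 and 17.4, with a narrow gap on day 1. miR-690 was at 54.0, 71.8 and 80.8 against 38.5, 20.7 and 11.7. miR-1934-3p and miR-3077-3p were low, at 12.4, 16.7 and 13.4 and 14.2, 14.9 and 16.7 against 5.04, 1 and 4.06 and 5.08, 4.42 and 2.59. Among more abundant miRNAs, miR-423-5p (chr11:77078122-77078144, minus strand, in an intron of Nsrp1) was at 4104, 4406 and 4165 against 2240.2, 1938 and 2179. With 4225 ± 159.8 against 2119 ± 159.8 (SD, n = 3), it rose by 1.00 on the log2 scale, but the call was lost without each pair (unadjusted p between 0.089 and 0.111) and with libraries divided by their totals (unadjusted p = 0.298). Likewise miR-744-5p rose from 977, 771 and 1039 to 1724, 1929.9 and 1662. miR-351-5p (chrX:53053315-53053338, minus strand), a homologue of the miR-125 family and a neighbour of miR-322, was at 315, 271 and 321 against 120.4, 165 and 114. Rises were also found for miR-132-5p, miR-1198-5p, miR-3470b and miR-339-3p, at log2 fold changes between 0.91 and 1.06. The other arm of the first, miR-132-3p, which is induced by neuronal activity, did not keep apart, at 148, 173 and 110.0 against 92.0, 66.7 and 129.7.

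Of the let-7 family only let-7e-5p rose among the 10 mature 5′ strands, where 2.36% of all miRNAs rose. It was at 775, 949 and 1083 in Trim71-/- libraries (936 ± 154, SD, n = 3) and at 525, 352 and 218 in Trim71fl/fl libraries (365 ± 154, SD, n = 3), a log2 fold change of 1.43 (SE 0.47, 95% interval 0.10 to 2.77, unadjusted p = 0.0413, adjusted p = 0.447). The gap was widest on day 6 and narrowest on day 1. The call was lost without day 5 (unadjusted p = 0.104), without day 6 (unadjusted p = 0.133) and with libraries divided by their totals (unadjusted p = 0.153). Together 7 of the 10 lay above their partners on all 3 days, against 23.3% of all miRNAs, and the median log2 fold change was 3.36. This median came from the pair of day 6, whose median was 9.999, against 0.09 and 0.37 on days 1 and 5, and without day 6 it was 0.26. In the floxed library of day 6, 8 of the 10 strands were at the floor. let-7a-5p, for example, was at 3006, 3230.5 and 7013 against 2612, 2388 and 1 (log2 fold change 4.14, SE 2.82, unadjusted p = 0.221). let-7g-5p, at 12694, 13847 and 34200.0 against 11841, 10688 and 1, and let-7f-5p, at 10065, 12702 and 28165 against 9535, 6898 and 1, followed the same course. The only strands without a floored value were let-7e-5p and let-7c-5p, which was at 772, 954 and 951 against 655, 473 and 476 (unadjusted p = 0.099), and their median was 1.09. The 3′ strands had the same library at the floor in 8 of 9, with 0 calls and a median of 1.798, which was -0.16 in the single strand without a floored value.

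The miRNAs that share hairpin clusters with let-7 had the floor on another day. let-7e lies next to miR-99b and miR-125a in an intron of Spaca6 on chromosome 17. miR-99b-5p (chr17:17830194-17830215, plus strand) was at 10458, 17085 and 9741 against 6847, 219.6 and 7564, so that the low floxed value fell on day 5 and not on day 6. Its arm miR-99b-3p and miR-100-5p were also low in that library, at 761, 1 and 854 and 90.8, 1 and 114 in Trim71fl/fl cells. miR-125a-5p, by contrast, was at 2481, 1528 and 2025 against 1282, 2235 and 1738, lower in Trim71-/- on day 5. Across the 8 partners the pairs had medians of 1.51, 3.14 and 0.23 on days 1, 5 and 6 (0.77 over days 1 and 6), all 8 fold changes were above 0 and 0 passed the test (unadjusted p between 0.0788 and 0.674).

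The floxed library of day 5 was also at the floor for miR-21a-5p, an abundant miRNA from the 3′ end of the Vmp1 locus. Its values were 355962, 796335 and 328152 in Trim71-/- and 235913, 1 and 263723 in Trim71fl/fl cells (unadjusted p = 0.223). The pair of day 5 was thus far wider than those of days 1 and 6. In the same library miR-200a-5p, miR-196a-1-3p, miR-10a-5p and miR-10b-5p were at 1 too. Of the 5 largest positive fold changes among the 130 miRNAs with a mean of at least 1000 and no floored value, 4 had their lowest floxed value there and, by the constant sums, their highest Trim71-/- value on the same day. Beside miR-99b-5p, miR-5099 was at 5690.1, 9319 and 6184 against 3894, 265 and 3401, miR-674-3p at 2523, 3915 and 2431 against 1532, 139 and 1624, and miR-200b-3p at 20892, 32362 and 20536 against 14371, 2901 and 14728. The fifth, miR-1981-5p, was lowest in the floxed library of day 6, at 3017, 3939.5 and 5775 against 3213, 2290.4 and 455 (unadjusted p = 0.18). None of miR-5099, miR-674-3p and miR-200b-3p passed the test, with unadjusted p from 0.129 to 0.132. Of these 130 miRNAs, 72 had a fold change above 0 and 58 below, 2 rose (miR-423-5p and miR-744-5p, against 2.36% of all miRNAs) and 5 fell (against 7.60%).

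Among 18 miRNAs of the miR-290 to miR-295 cluster, 0 passed the thresholds by limma, 9 fold changes were above and 9 below 0, 8 lay above (23.3% of all miRNAs) and 1 below (24.2% of all) their partners on all 3 days, and the median was 0.12, which became -0.36 with libraries divided by their totals. miR-291a-3p was at 390470, 444785 and 481304 against 493971, 439656 and 403136 (log2 fold change -0.02, 95% interval -0.92 to 0.87) and miR-294-3p at 87724, 102871 and 120932 against 131733, 116586 and 98525 (-0.16, -1.13 to 0.82). For both, the sign on day 1 was opposite to that on day 6. The most abundant strand, miR-292-5p, was at 1070000, 1400000 and 950359 against 702557, 371018 and 817411, higher on all days (unadjusted p = 0.131), and miR-293-5p and miR-293-3p kept apart upward at unadjusted p = 0.141 and 0.229. miR-291b-3p, with the seed AAGUGCA, was the 1 member below its partner on every day, at 1161, 2099 and 3012 against 5923, 4985 and 4071 (unadjusted p = 0.0584). Its p lay under 0.05 in 8 of 13 alternatives, among them libraries divided by their totals (log2 fold change -1.82, unadjusted p = 0.0255) and the fit without day 6 (unadjusted p = 0.0472). In the miR-302/367 cluster, which rises as mES cells become primed, 0 of 9 passed the thresholds and the median was -0.43. miR-302a-3p was at 805, 761 and 1072 against 1253, 1297 and 987 (unadjusted p = 0.292). The 17 stem cell markers of both clusters held between 54.0% and 58.1% of each clone 1 library in sum, so the label of the cells matched its markers in both genotypes.

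Of the other clusters, the 72 miRNAs from an intron of Sfmbt2, which is known in trophoblast and mES cells, gave 0 calls, yet 24 of them (33.3%, against 24.2% of all) lay below their partners on all 3 days and 0 above. Their median was -0.31, with -0.53, -0.49 and 0.05 on days 1, 5 and 6. These sequences are near-identical repeats, between which reads can be divided in error. Its most abundant member, miR-467a-5p, was at 12486, 12425 and 12420.5 against 14702, 14763 and 14767. The miR-200 family, which guards the epithelial state, had a median of 0.49 with 5 of 9 above on all days, against 23.3% of all miRNAs, and 0 calls. miR-200c-3p was at 4379.9, 4531 and 4072 against 2549, 2398 and 2857 (unadjusted p = 0.0741, but 0.0333 in limma with trend and 0.0415 among miRNAs with a mean of at least 100). With libraries divided by their totals its log2 fold change went from 0.74 to 0.26 (unadjusted p = 0.590). Without 1 pair the unadjusted p lay between 0.124 and 0.224. The clusters of miR-23, miR-27 and miR-24 had a median of 0.58 and 0 calls, with miR-24-2-5p at 643, 642 and 795 against 472, 474 and 319.9 (unadjusted p = 0.115). miR-182, miR-183 and miR-96 had a median of 0.34 and the X-linked miRNAs one of 0.39. Both medians turned below 0 (-0.13 and -0.09) when libraries were divided by their totals. Of the 24 X-linked miRNAs, 1 fell (miR-465a-5p), or 4.17% of the list against 7.60% of all miRNAs.

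Markers of other cell types were measured beside these results, because the sort may leave differentiated cells. The neural list had 1 rise (miR-132-5p) and 2 falls (miR-153-3p and miR-488-3p) among 24 (4.17% and 8.33%, against 2.36% and 7.60% of all miRNAs), a median of 0.14 (-0.33 with libraries divided by their totals), and sums of 11684 to 13324 in Trim71-/- and 7188 to 8829 in Trim71fl/fl libraries. As shares of the library these sums overlapped, at 0.240% to 0.275% and 0.230% to 0.262%, with the lower share in Trim71-/- cells on day 5. Its defining miR-124-3p was at 373, 165 and 329.7 against 275, 482 and 318 and miR-9-5p at 3719, 5098 and 3581 against 2304, 926 and 2442 (unadjusted p = 0.0867). The fibroblast list had 0 calls among 20, 9 above and 2 below their partners on all 3 days (45% and 10%, against 23.3% and 24.2% of all), a median of 0.40 (-0.07 with libraries divided by their totals) and, through miR-21a-5p, sums of 390145 to 863261 against 39920.3 to 308224, or 8.97% to 15.5% of the library against 1.46% to 8.19%. Its markers miR-143-3p and miR-145a-5p were at 26217, 34964 and 30508 and 258, 241 and 202 against 21503, 12756 and 17212 and 248, 264 and 304. A further marker, miR-199a-3p, lay below its partner on every day, at 86.5, 72.5 and 85.8 against 86.9, 101 and 87.6, with a narrow gap on days 1 and 6. Blood and endothelial markers summed to 6600.2 to 8694 against 7674 to 9811, higher in Trim71-/- on day 6 only, with 2 falls among 9 (7.60% of all miRNAs fell) and 5 below on all 3 days (24.2% of all). Their share of the library was lower in Trim71-/- on each day, at 0.134% to 0.200% against 0.204% to 0.325%, with a narrow gap on day 6. Muscle and endoderm markers gave 0 calls among 3 and 8. On all 3 days 2 and 4 of them lay above and 0 and 2 below their partners. Muscle sums were higher in Trim71-/- on each day, at 442 to 514 against 295 to 367, while their library shares overlapped. Endoderm and epithelium sums were lower on each day, at 9307 to 10217 against 10524 to 11436 (0.168% to 0.236% of the library against 0.280% to 0.417%). The most abundant member, miR-205-5p (mean 7743), lay below its partner on all 3 days, whereas the list median was 0.53. Both defining endoderm markers were higher in Trim71-/- on each day. miR-192-5p was at 1926, 2917 and 1813 against 1404, 413 and 1518, and miR-122-5p at 22.6, 38.9 and 24.6 against 14.5, 1 and 12.5. Of the 15 defining markers 11 are in the table, and miR-214-3p, miR-223-3p, miR-133a-3p and miR-206-3p were not analysed here. Among the 11, miR-451a (Trim71-/-, day 6) and miR-122-5p (Trim71fl/fl, day 5) each had 1 value at the floor. The part of other cells in the differences above was not tested.

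**Figure D4:**
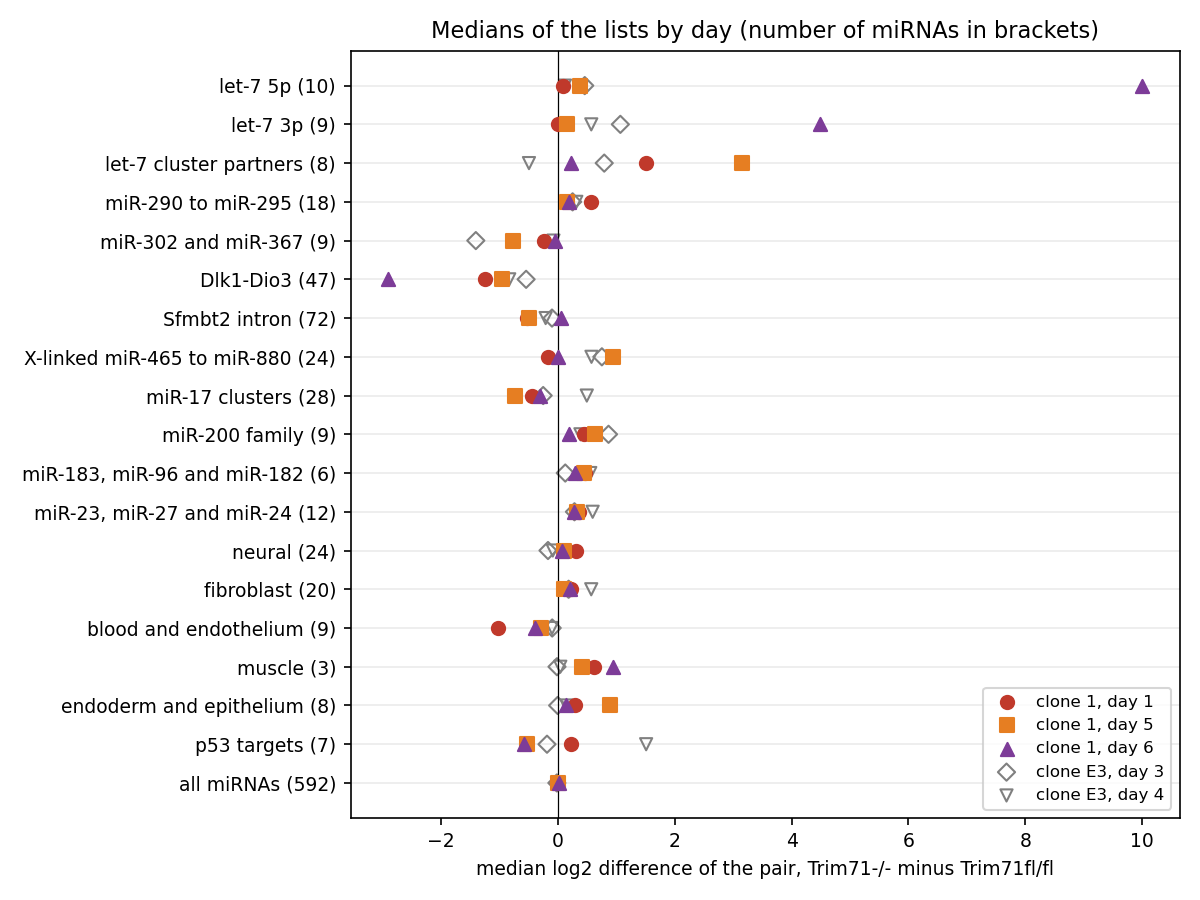
Median log2 difference of Trim71-/- minus Trim71fl/fl for each list of miRNAs, in the pairs of clone 1 (filled) and clone E3 (open), with the number of miRNAs in brackets. Dlk1-Dio3 lies below 0 in all 5 pairs, between -2.91 and -0.55, and the let-7 strands stand far to the right on day 6 alone (9.999 and 4.49).

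The days of clone 1 were alike to a moderate degree. Across the 592 miRNAs the relative differences of 2 days correlated at 0.45 (days 1 and 5), 0.32 (days 1 and 6) and 0.30 (days 5 and 6), and the log2 differences at a Spearman rho of 0.44, 0.39 and 0.44. Between a day of clone 1 and a day of clone E3 the first measure lay between -0.30 and 0.28, and within clone E3 it was -0.006. These values are across miRNAs that share a normalization and a common level and are descriptions only.

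Whether the genotype difference itself depended on the clone was tested as an interaction over the 10 libraries of the 5 pairs. In 33 miRNAs (5.57%) the unadjusted p was under 0.05, and in 1 (0.169%) the adjusted p was. This was miR-136-5p, at a log2 difference between the clones of -7.73 (SE 0.64, adjusted p = 0.0293), since its pairs in clone E3 differed by -0.24 and 0.14. Without each clone 1 pair in turn this adjusted p was not under 0.05. The next were miR-410-3p and miR-154-3p, at -5.92 (unadjusted p = 0.0038) and -4.55 (unadjusted p = 0.0047) and adjusted p of 0.627 or more. Of the 47 Dlk1-Dio3 miRNAs, 9 had an unadjusted interaction p under 0.05, where 5.57% of all miRNAs did. The list had medians of -0.55 and -0.84 in the clone E3 pairs of days 3 and 4, below 0 as in clone 1. miR-16-5p, at a log2 fold change of 0.77 in clone E3, had an interaction of -2.31 (SE 0.67, unadjusted p = 0.016), and the median of its seed family was 0.77 there against -1.42 in clone 1. For the miR-17 clusters the medians were 0.15 and -0.58, and 4 of 28 had an unadjusted interaction p under 0.05 (5.57% of all miRNAs). let-7e-5p differed by 1.01 and 0.58 in the clone E3 pairs, the direction of clone 1, with an unadjusted interaction p of 0.41. Of the 59 miRNAs past the thresholds in clone 1, both clone E3 pairs had the same sign in 16 and the opposite sign in 10, compared with 153 and 130 of all 592. Among these 59, 22 had an unadjusted interaction p under 0.05. A raised count is built in here, because the interaction contains the clone 1 difference by which the 59 were chosen. The same limit applies to the counts for Dlk1-Dio3 and the miR-17 clusters, lists chosen with earlier results of these data known.

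**Figure D5:**
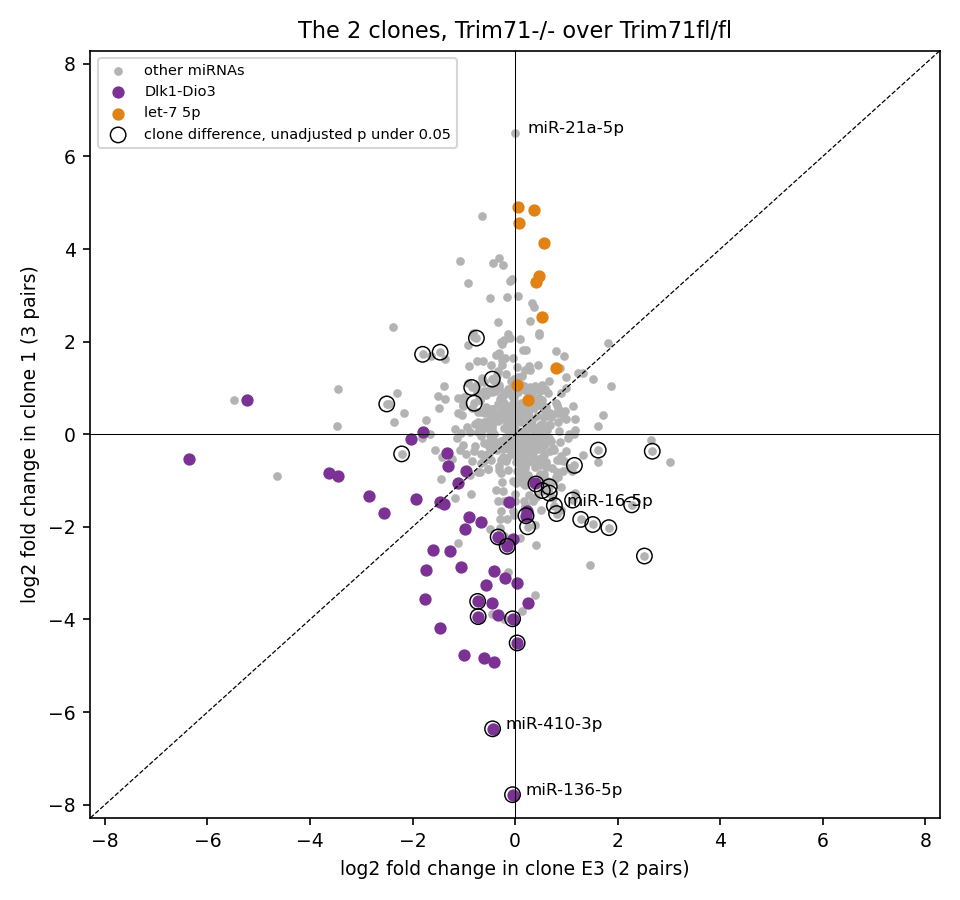
Log2 fold change of Trim71-/- over Trim71fl/fl in clone 1 (3 pairs, vertical) against clone E3 (2 pairs, horizontal) for 592 miRNAs, with the dashed line of equality and black rings at an unadjusted interaction p under 0.05 (33 miRNAs). Of the 47 Dlk1-Dio3 miRNAs (purple), 34 lie below the line, with miR-136-5p and miR-410-3p lowest in clone 1.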

How the data were processed

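Small RNA libraries were prepared by the authors with the NEBNext small RNA kit, sequenced as 50 bp reads and trimmed with CASAVA 1.8 and FLICKR. They aligned the reads with Bowtie2 2.2.1 to mm10 with miRBase v20 and counted them in Partek 6.6. After DESeq2 normalization of the counts, the authors applied a batch correction, raised what was below 1 to 1 and dropped rare miRNAs. The deposited values are thus a corrected signal and not raw counts. The kit named in the labels is one for mRNA and differs from this. Raw reads per library are not in the table, so no counting interval could be given and precision rests on 3 pairs.

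The miRNAs were read from all 592 named lines, and 9677 blank lines were dropped. Genotypes were compared within the 6 clone 1 libraries in R 4.3.3 by fitting log2(value + 1) to genotype and day with limma 3.58.1, moderated by eBayes with no trend. The Benjamini-Hochberg adjustment covered 592 miRNAs. The pairing follows the day number in the labels. Across miRNAs, same-day deviations from the group means correlated between -0.41 and -0.38 on the log2 scale and at -1 before the floor, which the constant sums impose. Values before the floor were recovered as this sum minus the partner. The clone difference was the genotype by clone term over 10 libraries with day as a block. The day 2 library of clone E3 was left out because it has no partner and matched the average of the remaining Trim71fl/fl libraries, floor undone, in 592 miRNAs. The fits were tested on simulated data. Tables were made with pandas 2.3.3 (Python 3.11.15) and plots with matplotlib 3.10.9.

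The lists of miRNAs follow gene clusters, families and tissue markers by name. Named miRNAs include the 12 strongest rises and the 12 strongest falls among those called with 1 direction on all 3 days. To these were added 8 strands of miRNAs that the study's text takes up without their arms, which were chosen here. Further ones are the 5 with the highest mean, the 5 smallest interaction p and members of lists. Among miRNAs with a mean of at least 1000 and no floored value, the 5 largest positive and 5 largest negative fold changes were named. Others are named as the remaining members of a count and were chosen after their values were seen. The members, lists and tests were chosen with earlier results of these data known. Sequences and positions are from RefSeq (GRCm38.p6, the build of mm10), where 431 miRNAs had 1 position, and host genes from its matching GENCODE annotation. Alternatives were the fit without the day block, each pair left out, scaling by totals or medians, pseudocounts of 0.1 and 10, untransformed values, values before the floor, miRNAs without a floored value, limma with trend and a mean of at least 100.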

Additional observations from a re-analysis of the deposited data

Results flagged for a closer look

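The genotype difference of miR-136-5p differed between the clones, by -7.73 on the log2 scale (interaction in limma, adjusted p = 0.0293), with -7.78 in clone 1 and -0.24 and 0.14 in the pairs of clone E3. This adjusted p was not under 0.05 when any 1 clone 1 pair was left out, nor on values before the floor. For miR-3077-3p the difference between the clones was 3.53 (unadjusted p = 0.0057), for miR-351-5p it was 1.64 (unadjusted p = 0.032) and for miR-16-5p -2.31 (unadjusted p = 0.016). None of these 3 passed adjustment, with adjusted p of 0.627 or more. They were picked from the miRNAs named by rule because they moved one way in every clone 1 pair and the other way in both clone E3 pairs. An unadjusted interaction p under 0.05 was also required, so neither trait is a separate result. The median of the neural list was 0.14 over the clone 1 pairs, above 0 on each day, and below 0 in both clone E3 pairs (-0.17 and -0.09). The list was flagged for this contrast of signs, which is thus no separate result. That difference was not tested, and the clone 1 median was -0.0097 without day 1 and -0.33 with libraries divided by their totals.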

How the results depend on the processing

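With 14 rises and 45 falls in the reported fit, leaving out 1 pair gave 6, 7 or 12 rises, 16 to 31 falls and 0 adjusted calls, a fit with 1 residual degree of freedom before moderation that the smaller number of pairs limits. Without the replicate block on the day, 73 rose, 88 fell and 32 passed adjustment. As the constant sums make partners mirror each other, that fit counts each difference in both groups, and all 59 called miRNAs stayed called. With libraries divided by their totals 3 rose and 76 fell, and 60 higher and 233 lower miRNAs did not overlap, in place of 138 and 143. On untransformed values 28 rose, 66 fell and 0 passed adjustment, and on values before the floor 24 rose, 64 fell and 0 passed. With a pseudocount of 0.1, 0 passed. Among miRNAs without a floored value 25 rose, 44 fell and 0 passed adjustment, and miR-136-5p was not among those tested. With a mean of at least 100, 23 fell and 80 lay lower without overlap, as 330 miRNAs were tested. Non-overlapping counts were 185 to 197 higher and 190 to 199 lower with 2 pairs. The adjusted p of miR-136-5p lay between 0.00117 and 0.582 over these alternatives. The clone difference gave 25 to 31 miRNAs without 1 clone 1 pair, with 0 after adjustment, and 53 and 0 on values before the floor. Of the miRNAs named by rule, miR-294-3p (0.058) and miR-291a-3p (0.14) changed sign without day 1, and miR-293-3p (-0.048) with libraries divided by their totals. That scaling also turned the medians of miR-290 to miR-295 (-0.36), the X-linked miRNAs (-0.087), the miR-183 cluster (-0.13), the neural (-0.33) and the fibroblast list (-0.074). Others that turned were let-7 3p without floored values (-0.16), the X-linked miRNAs without day 5 (-0.0044), the neural list without day 1 (-0.0097), endoderm and epithelium at a mean of at least 100 (-0.27), and p53 targets without day 6 (0.050) and without floored values (0.015). The causes were not tested. In all, 501 of the alternatives for named miRNAs kept direction and call, 56 lost the call, 14 gained it (8 of them of miR-291b-3p) and 3 reversed. Of those for list medians 195 stayed within the spread between days, 28 moved further and 11 reversed. The unknown depth and the floor limit statements on rare miRNAs.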
